A study of Mus musculus with 40 samples.

Results

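The genes described here are those named for the proteins of the cytosolic ribosome, measured by RNA sequencing of 40 CT26 tumors. The rule was one of names, and it was set with earlier results of these data known: every gene of the count table whose symbol was Rpl or Rps followed by a number, with the suffixes used for subunit members and paralogs, plus Rplp0, Rplp1, Rplp2 and Rpsa. This gave 85 of the 54087 genes in the table, of which 46 belonged to the large subunit, 30 to the small subunit and 9 were paralogs with an L suffix (Rpl3l, Rpl10l, Rpl22l1, Rps27l, Rpl36al, Rpl39l, Rpl7l1, Rps4l and Rps12l1). The GENCODE M21 annotation lists Rps4l as a transcribed processed pseudogene and Rps12l1 as a processed pseudogene, and the other members as protein-coding. A filter on low counts kept 82 of them, including all 76 subunit members, and removed Rpl3l, Rpl10l and Rps12l1. Rps3a1, Fau, Gnb2l1 and others, which also encode ribosomal proteins, fall outside the naming rule and are given separately.

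CT26 is a colon carcinoma line of BALB/c mice, and 1000000 cells were injected under the skin. Each mouse received monoclonal antibodies (mAbs) intraperitoneally on days 6, 9 and 12 and its tumor was collected on day 13. The 8 groups of 5 mice received an isotype control (motavizumab, mIgG2a), anti-GARP:TGF-β1 clone 58A2 as WT mIgG2a, the same clone as FcD, whose Fc part does not bind mouse Fcγ receptors, anti-TGF-β clone 1D11, anti-PD-1 FcS, or anti-PD-1 FcS together with 1 of the other 3 blocking mAbs (the GARP WT, GARP FcD and anti-TGF-β combinations below). All groups, the controls included, therefore carried the same transplanted line, and no tumor-free or antibody-free mice were analysed here. RNA came from tumor fragments, which hold carcinoma, immune and stromal cells, so that fewer cells of a type and less RNA per cell cannot be told apart. Mice of a group are named below by a replicate number, which follows the order of deposit and pairs no mice across groups.

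Ribosomal proteins assemble with ribosomal RNA into the small subunit, which reads the mRNA, and the large subunit, which forms the peptide bond. Because each ribosome holds about the same set of proteins in fixed proportion, the genes are known for being expressed together, and many of their mRNAs start with an unbroken run of pyrimidines, the 5′ terminal oligopyrimidine (TOP) motif, through which the kinase mTOR controls their translation. Fast-growing tumors are known for high ribosome production.

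The sequence around the start site shows that shared feature and where it is missing. RefSeq start windows (GRCm38.p6) were matched for 63 of the 85 genes, 56 of them subunit members. Among these 56, 16 (28.6%) had only C or T in the first 5 transcribed bases, against 5.27% of all 27018 genes with a window, and 13 (23.2%) also started with C, against 3.01%. The 30 bases below run from 15 before the annotated start to 15 from the start onward, and capitals mark the unbroken run of C or T that holds the start base. The first 5 are genes with such a run, among them Rps6 (the substrate of S6 kinase), Rplp2 (a stalk protein), and Rpl14 and Rpl28, which depart from the other genes in a tumor described further on. The last 2, Rplp0 and Rps4x, have no such run at the annotated start.
Rps6, chr4:86857353-86857382, minus strand: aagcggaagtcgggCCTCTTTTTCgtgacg
Rplp2, chr7:141447636-141447665, plus strand: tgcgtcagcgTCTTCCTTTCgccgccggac
Rps27, chr3:90213634-90213663, minus strand: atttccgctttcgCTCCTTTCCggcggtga
Rpl14, chr9:120571502-120571531, plus strand: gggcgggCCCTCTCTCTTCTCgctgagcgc
Rpl28, chr7:4792950-4792979, plus strand: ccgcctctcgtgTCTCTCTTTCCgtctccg
Rplp0, chr5:115559452-115559481, plus strand: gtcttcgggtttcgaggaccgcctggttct
Rps4x, chrX:102189377-102189406, minus strand: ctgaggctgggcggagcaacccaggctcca
In the 300 bases from 250 before to 50 after the start, searched on both strands, CCGGAAG (the core bound by ETS-family factors) was present in 41.1% of the 56 subunit members and in 9.93% of all genes. CTTTCC was present in 51.8% against 29.3%, and TATAAA in 10.7% against 15.7%. These are matches of letters only, and the annotated start may differ from the one used in the tumors.

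The 40 libraries held between 11931730 and 20680548 counts. Levels are given as CPM, the count of a gene relative to the scaled library size after scaling of library sizes, and compared between genes per kilobase of transcript. Library numbers split the mice into a set numbered 41 to 60 and a set numbered 61 to 80, each with 2 or 3 mice of every group. Xist was at most 0.433 CPM in the first set and 59.2 to 762 CPM in the second, while the Y-linked Ddx3y was 6.78 to 34.1 CPM in the first and Y transcripts did not exceed 0.0731 CPM in the second. The sets thus differ in these transcripts as well as in number, and the median over the ribosomal protein genes in each comparison of groups below is also given within each set. Values of single genes and of other gene lists are not split by set.

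Levels of the subunit members spanned a wide range. Rpsa, the small-subunit protein also known as the laminin receptor precursor, had the highest mean at 3244 CPM, with single tumors from 1903 to 4873 CPM. It was followed by Rpl8 at 2568, Rpl4 at 2503, Rplp0 at 2467 and Rplp1 at 2342 CPM, and their ranges over the 40 tumors overlapped. Per kilobase the order changed, and Rplp1, which with Rplp2 forms the flexible stalk that recruits elongation factors, led at 4693 CPM per kb, against 2459 for Rplp2 and 1817 for Rplp0, which anchors the stalk. At the other end Rpl24 stood at 0.671 CPM, Rpl13a at 43.6 and Rpl29 at 54.3 CPM. Rpl24 is a low outlier for a subunit member: 71.5% of its transcript overlaps Gm28037 on the same strand in the GENCODE M21 annotation, which may not be the annotation used for counting. The same annotation places Gm45713 and Mir5121 over 59.3% of Rpl13a and Gm49383 over 63.1% of Rpl36al, and a readthrough gene over 91.6% of Rps10. The counts of these 4 genes are therefore uncertain, as are those of genes with many near-identical pseudogenes, such as Rpl31 and Rps12 with 22 pseudogene entries each.

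The share of all counts taken by the 85 genes differed widely between tumors of the same group. It ran from 5.22% in replicate 5 of the GARP WT combination to 12.4% in replicate 5 of the anti-GARP:TGF-β1 WT group. In the isotype group the 5 tumors were at 8.26%, 7.90%, 10.6%, 8.23% and 8.38%, so that replicate 3 was above the other 4. With anti-GARP:TGF-β1 WT they were at 8.52%, 8.72%, 10.4%, 9.00% and 12.4%. Both ranges overlapped. Under anti-GARP:TGF-β1 FcD the tumors were the most alike of any group, at 9.33%, 9.30%, 8.69%, 8.71% and 9.13%. The anti-TGF-β group spread from 6.19% to 10.2% and the anti-PD-1 group from 7.199% to 11.2%, each spanning the isotype median.

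Tumors of the GARP WT and GARP FcD combinations were mostly low. In the GARP WT combination the 5 tumors were at 8.88%, 10.1%, 6.65%, 7.36% and 5.22%. In the GARP FcD combination they were at 7.14%, 11.1%, 7.19%, 6.58% and 6.24%. In the FcD combination 4 of 5 tumors lay below every isotype tumor and replicate 2 lay above every isotype tumor, and in the WT combination 3 of 5 lay below. In the anti-TGF-β combination they were at 6.87%, 10.04%, 11.6%, 9.38% and 10.1%, so replicate 1 was below the isotype range and the other 4 were inside or above it. Group means ± SD (n = 5 each) were 8.68% ± 1.10 for isotype, 9.81% ± 1.63 for anti-GARP:TGF-β1 WT, 9.03% ± 0.312 for FcD, 8.32% ± 1.605 for anti-TGF-β, 9.32% ± 1.51 for anti-PD-1, and 7.64% ± 1.90, 7.65% ± 1.96 and 9.59% ± 1.71 for the WT, FcD and anti-TGF-β combinations. The pooled SD within groups was 1.55 percentage points, and the difference between group means was not tested. By library set, the WT combination averaged 9.48% in libraries 41 to 60 and 6.41% in 61 to 80, the FcD combination 8.47% and 6.41%, and the isotype group 8.08% and 9.08%. The ratio of large-subunit to small-subunit counts lay between 1.25 and 1.38 in every tumor, at 1.34 ± 0.029 in the isotype group and 1.28 ± 0.045 in the anti-TGF-β combination.

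**Figure D1:**
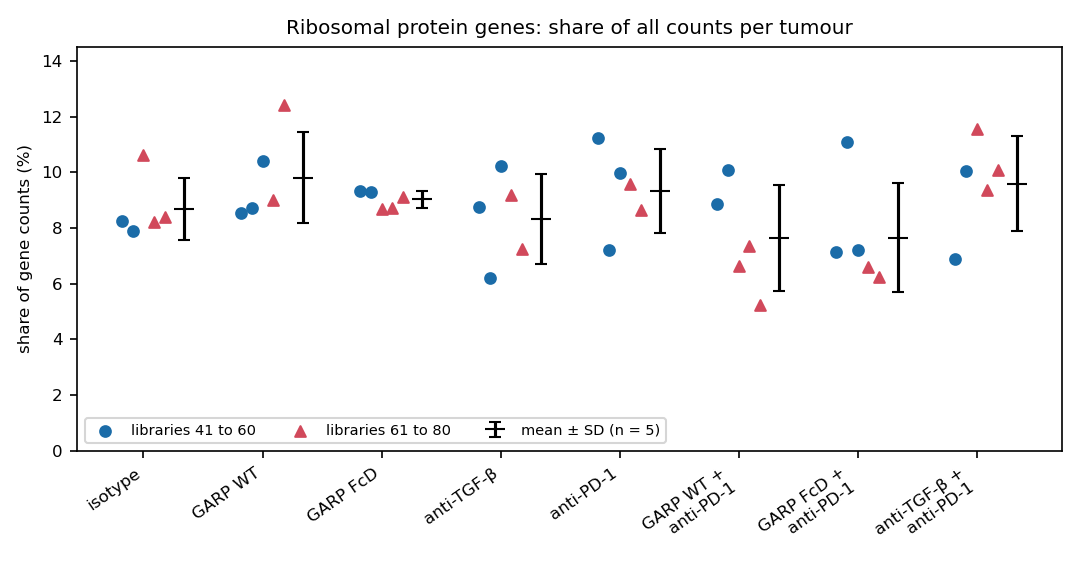
Percent of all counts taken by the 85 ribosomal protein genes (y axis) in each of the 40 tumors, by treatment group (x axis); blue circles are libraries 41 to 60, red triangles libraries 61 to 80, and black bars the mean ± SD (n = 5). The groups overlap, the 5 FcD tumors lie close together between 8.69% and 9.33%, and 1 tumor of the FcD combination, at 11.1%, stands above the other 4.

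Within a tumor the genes shifted together. For each tumor, the log2 level of each of the 76 subunit members was compared with that gene's median over all 40 tumors. In 25 of 40 tumors at least 90% of the 76 genes lay on the same side of their medians, above in 11 and below in 14, and in 33 tumors at least 75% did. All 76 were above in 6 tumors, and none was above in 4. Over all genes tested, between 48.3% and 52.4% lay above their median in any tumor, and no tumor reached 75%. The scaling of library sizes largely fixes that share for all genes, so it is given as a reference only. The deviation of each gene from its own mean log2 CPM over the 40 tumors was averaged within each tumor. This mean deviation of the 76 genes ran from −0.65 in WT combination replicate 5 to 0.61 in anti-GARP:TGF-β1 WT replicate 5, with an SD of 0.29 between tumors, whereas the genes of a tumor scattered around their own mean with a median SD of only 0.092. Tumors of the same group were on opposite sides: in the isotype group replicate 3 averaged 0.33 and replicate 2 −0.16.

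Other gene groups did so to different degrees. The 76 mitochondrial ribosomal protein genes tested, which serve the separate ribosome of mitochondria, reached 90% on the same side in 18 tumors, and their mean deviation had an SD of 0.18. The 18 TOP mRNA genes that are not ribosomal proteins, such as the elongation factor gene Eef1a1, did so in 15 tumors with an SD of 0.19. The 36 ribosome biogenesis genes did so in 7 tumors (SD 0.14) and the 14 translational control genes, such as Mtor, in 0 (SD 0.048). The 10 proliferation genes did so in 12 tumors (SD 0.12) and the 12 genes of the mitochondrial genome in 11 (SD 0.25). The 56 tested processed pseudogenes of the ribosomal protein genes, which may share reads with their parent genes, did so in 4, with an SD of 0.29. These lists differ in size, and shorter lists reach 90% more easily.

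The spread of single genes around their group means was also wide for their level. Within groups the SD of log2 CPM had a median of 0.29 over the 76 genes, with a range from 0.21 (Rpl29) to 0.44 (Rpl24). For comparison, all genes had a median of 0.25, and the 599 genes with a mean log2 CPM of at least 8 had 0.20. Among the paralogs Rpl7l1 was the steadiest of the 82 genes at 0.11 and Rps4l the most variable at 0.73.

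No ribosomal protein gene passed an adjusted p of 0.05 in any of the 16 comparisons tested with edgeR's quasi-likelihood test, and DESeq2 called a member in only 1 of them. The first question was whether a single antibody moved these genes relative to isotype control. With anti-GARP:TGF-β1 WT the median log2 fold change over the 82 genes was 0.21, a level 1.16-fold that of isotype, and all 82 values were above 0, while the median over all 14760 genes was 0.013. None of the 82 reached an unadjusted p of 0.05, against 0.583% of all genes in that direction, and 0% of all genes passed the adjusted test. Rps29, a zinc-binding small-subunit protein, had the smallest p of the higher genes, with a log2 fold change of 0.28 ± 0.17 (SE) and an adjusted p of 1 (edgeR). The median was 0.20 within libraries 41 to 60 and 0.28 within 61 to 80, and it dropped to 0.075 when 1 mouse was left out, replicate 5.

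With anti-GARP:TGF-β1 FcD the median was 0.054, and 11 of 82 values were below 0. The calls were 0 of 82, against 0% of all genes by adjusted p and 0.264% by unadjusted p for higher genes, of which 0 were ribosomal protein genes. Within the library sets the medians had opposite signs, 0.22 and −0.041. The lowest p among higher genes were those of Rpl26, Rps28 and Rpl30, and among lower ones those of Rpl36al, Rps14 and Rpl11. Rpl11 joins Rpl5 and 5S RNA in a particle that also binds Mdm2.

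Anti-TGF-β gave a median of −0.067, with 71 of 82 values below 0 and 0 of 82 called, against 0% of all genes, or 0.549% lower at an unadjusted p of 0.05, where the members numbered 0 as well. This direction was not stable. It changed sign without anti-TGF-β replicate 2 (0.023) and without isotype replicate 3 (0.024), and the library sets gave 0.043 and −0.17. Rpl29, Rpl4 and Rpl10 led the lower genes, and Rps4l, Rpl24 and Rps27l the higher ones. Anti-PD-1 gave a median of 0.12 with 81 of 82 above 0 and 0 of 82 called or past an unadjusted p of 0.05, against 0% and 0.603% (higher) of all genes. Its within-set medians were 0.22 and 0.024, and Rpl36al was the gene below 0. The median was 0.030 without anti-PD-1 replicate 1 and 0.205 without isotype replicate 3.

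Both combinations with an anti-GARP:TGF-β1 mAb had medians below isotype. For the WT combination it was −0.16 (0.898-fold), with 74 of 82 values below 0 against 48.1% of all genes. It was −0.054 without combination replicate 5 and −0.28 without combination replicate 2. None of the 82 passed the adjusted test, as was true for 0% of all genes. At an unadjusted p of 0.05, 3 were lower, Rpl7l1 and Rpl10 among them, which is 3 of 82 against 7.47% of all genes, so the share was no higher than the background. The within-set medians were opposite, 0.28 in libraries 41 to 60 (2 against 2 mice) and −0.49 in 61 to 80 (3 against 3 mice).

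Rpl10, an X-linked large-subunit protein that completes the P-site region of the ribosome, was at 1687, 1627, 2236, 1920.5 and 1719 CPM in the isotype tumors and at 1725, 1556, 1357, 1550.1 and 1246 CPM in the combination. Only replicate 1 of the combination lay within the isotype range, and the log2 fold change was −0.31 ± 0.15 (SE) with an adjusted p of 0.241 (edgeR). Rpl7l1, a paralog of Rpl7 with a role in ribosome assembly, was at 112, 126, 122, 115 and 123 CPM against 106, 123, 106, 104 and 99.5 CPM, and replicate 2 was the exception there. Its log2 fold change was −0.15 ± 0.076 with an adjusted p of 0.239.

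For the FcD combination the median against isotype was −0.18 (0.885-fold), with 79 of 82 values below 0. The adjusted test called 0 of 82 and 0% of all genes, and 0 of 82 were lower at an unadjusted p of 0.05, against 5.85% of all genes. Without replicate 2 of the combination 48 were lower at that unadjusted level, when 15% of all genes were, and the median was −0.37. Without isotype replicate 3 the median was −0.098. Rpl10 and Rpl14 were among the 3 lower genes with the smallest p. Rps4l, the autosomal pseudogene copy of Rps4x at about 2.07 CPM, was the highest value at 0.89. The within-set medians were 0.068 and −0.53.

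For the anti-TGF-β combination the median was 0.19 (1.14-fold), with 81 of 82 values above 0. The adjusted test called 0 of 82 and 0% of all genes. The 2 genes higher at an unadjusted p of 0.05 were Rpl7l1 and Rps27l, against 8.49% of all genes in that direction, again below the background share. Rpl7l1 was at 121, 131, 141, 141 and 135 CPM in this combination, with 3 of the 5 tumors at or above 135 CPM and all isotype tumors at most at 126.5 CPM. Its log2 fold change was 0.16 ± 0.075 with an adjusted p of 0.232 (edgeR). Rps27l, a paralog of Rps27 that is a known p53 target, was at 122, 189, 205, 171 and 167 CPM against 122, 130, 170, 134 and 128 CPM, and the groups overlapped. Its log2 fold change was 0.32 ± 0.16 with an adjusted p of 0.239. Without combination replicate 1, 15 of 82 were higher at the unadjusted level, against 13.1% of all genes in the same fit, and the median was 0.29. It was 0.085 without combination replicate 3. The within-set medians were 0.078 and 0.24.

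**Figure D2:**
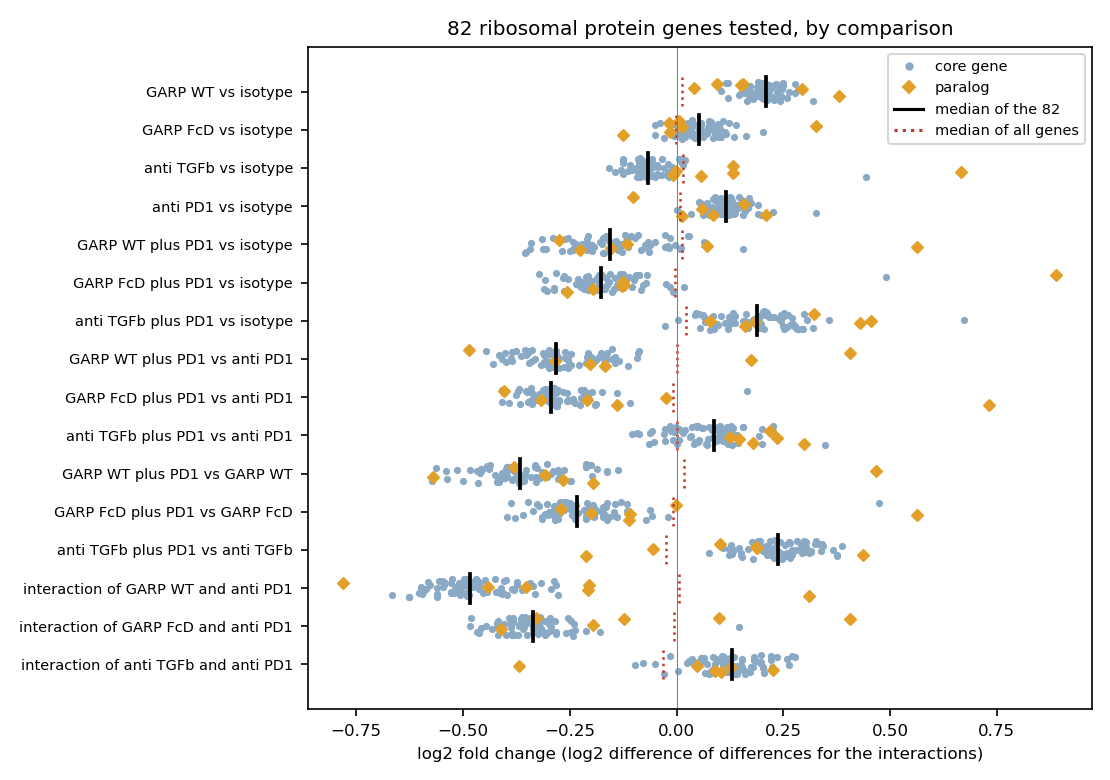
Log2 fold change (x axis) of each of 82 ribosomal protein genes in the 16 comparisons (rows); the black line is the median of the genes, the red dotted line the median of all 14760 genes tested, and orange diamonds are paralogs. The points of a comparison move as a band, lowest in the interaction of anti-GARP:TGF-β1 WT with anti-PD-1 (median −0.48) and highest in the anti-TGF-β combination against anti-TGF-β alone (median 0.24).

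The next question was what each second antibody added to anti-PD-1. These comparisons share the anti-PD-1 tumors. The WT combination gave a median of −0.28 with 80 of 82 below 0. The adjusted test called 0 of 82 and 0% of all genes, and 10 were lower at an unadjusted p of 0.05, or 10 of 82 against 5.99% of all genes. It was 5 with only the compared groups in the model (3.36% of all genes) and 18 with library totals alone (7.49%). That number ran from 1 without combination replicate 5 (3.27% of all genes in the same fit) to 54 without combination replicate 2 (10.3%), and within the library sets the medians were 0.041 and −0.51. Of the other mice, leaving out anti-PD-1 replicates 1, 2, 3 and 4 gave 2, 29, 3 and 6 (2.95%, 10.3%, 3.61% and 5.44% of all genes), and combination replicates 1 and 3 gave 21 and 3 (6.94% and 4.51%).

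The FcD combination gave a median of −0.29 with 80 of 82 below 0, 0 of 82 called against 0% of all genes, and 8 of 82 lower at the unadjusted level against 4.27%. The number was 5 with only the compared groups in the model (4.07%) and 17 with no filter on low counts (3.19%). The 8 became 76 without combination replicate 2, when 13.8% of all genes were lower, and 34 without anti-PD-1 replicate 2, when 8.25% were. They became 2 to 4 without anti-PD-1 replicates 3 or 4 or combination replicates 1 or 3 (2.06% to 3.67% of all genes), and 0 without anti-PD-1 replicate 1 or combination replicates 4 or 5 (1.97% to 4.26%). Within sets the medians were −0.17 and −0.54. The anti-TGF-β combination gave a median of 0.087 with 65 of 82 values above 0, no member called against 0.00678% of all genes, and 0 of 82 higher at the unadjusted level against 7% of all genes. Its median turned to −0.021 without combination replicate 3, and was −0.15 and 0.23 in the sets.

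Of the 13 pairwise comparisons, adding anti-PD-1 to anti-GARP:TGF-β1 WT had the median furthest from 0. Of 82 genes, 81 were below 0, with a median of −0.37 (0.776-fold), while the median of all genes was 0.018. The adjusted test in edgeR called 0 of 82, as it did 0% of all genes, and DESeq2 called 1, against 2.42% of all genes it tested. At an unadjusted p of 0.05, 37 of 82 were lower (22 large-subunit, 14 small-subunit, 1 paralog), against 13% of all genes. With only the compared groups in the model it was 18, against 8.94%. That number depended on single mice. It fell to 4 without anti-GARP:TGF-β1 WT replicate 5, 8 without combination replicate 5, 14 without combination replicate 3 and 23 without anti-GARP:TGF-β1 WT replicate 3, when 7.12%, 7.8%, 9.59% and 10.3% of all genes were lower. It was 75 without combination replicate 2, against 16.7% of all genes in the same fit. In that fit 9 of the ribosomal protein genes passed the adjusted test, among them Rplp0, Rpl15, Rpl18 and Rpl7l1. Of all genes 1707 of 14952 did, so the share of ribosomal protein genes was no higher than the background. The medians within the sets were 0.068 in libraries 41 to 60 (2 against 3 mice) and −0.76 in 61 to 80 (3 against 2 mice).

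Rpl10 was at 1630.1, 1773, 2072, 1958 and 2769 CPM under anti-GARP:TGF-β1 WT, against the 1246 to 1725 CPM of the combination given above. Only combination replicate 1 exceeded the lowest tumor of the other group. The log2 fold change was −0.46 ± 0.15 (SE), with an adjusted p of 0.0963 (edgeR, n = 5 each). Genes of other roles were lower as well, by differing amounts. Rplp0 was −0.46 ± 0.18 (adjusted p 0.111), Rps6 −0.37 ± 0.17 (0.139), and Rpsa −0.40 ± 0.19 (0.162). Rpl5 and Rpl11, the Mdm2-binding pair of the 5S particle, were −0.21 and −0.33, and Rps19, the gene most often mutated in Diamond-Blackfan anemia, was −0.37. None of these passed the threshold.

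Adding anti-PD-1 to FcD gave a median of −0.23, with 80 of 82 below 0 and 0 of 82 called against 0% of all genes. At the unadjusted level 3 were lower (Rpl14, Rpl10 and Rpl28), against 7.91% of all genes, 65 were lower without combination replicate 2, when 17% of all genes were, and 11 were lower when the other groups were left out of the model (8.75%). The sets gave −0.14 and −0.48. Adding anti-PD-1 to anti-TGF-β gave a median of 0.24, with 80 of 82 above 0 and 0 of 82 called against 0% of all genes. At the unadjusted level 2 were higher (Rps13 and Rps9), against 3.96%, which became 35 without combination replicate 1 (10.3% of all genes) and 22 without anti-TGF-β replicate 3 (5.25%). The sets gave 0.030 and 0.39.

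The interaction terms asked whether the effect of the second antibody differed between mice with and without anti-PD-1. For anti-GARP:TGF-β1 WT the median term was −0.48 with 81 of 82 below 0. No gene was called, in the list or among all genes (0%), and 25 of 82 were below 0 at an unadjusted p of 0.05, against 4.44% of all genes. This ran from 1 without anti-GARP:TGF-β1 WT replicate 5 (2.17% of all genes in the same fit) to 73 without combination replicate 2 (7.58%). It was 38 to 55 without isotype replicate 3, anti-PD-1 replicate 2, anti-GARP:TGF-β1 WT replicates 1 or 2 or combination replicate 1 (5.24% to 8.11% of all genes in those fits). It was 2 to 12 without isotype replicates 1, 2, 4 or 5, anti-PD-1 replicates 1, 3 or 4, anti-GARP:TGF-β1 WT replicate 3 or combination replicates 3, 4 or 5 (1.78% to 4.01%). The median term was −0.17 in libraries 41 to 60 and −0.79 in 61 to 80. For FcD the median term was −0.34 (79 of 82 below 0; 0 called against 0%, and 0 at the unadjusted level against 2.05%), at −0.38 and −0.4996 in the sets. For anti-TGF-β it was 0.13 (76 of 82 above 0; 0 called against 0%, and 0 against 0.752%), at −0.19 and 0.36 in the sets. All 3 terms use the same isotype and anti-PD-1 tumors.

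A single tumor broke the common pattern. In replicate 2 of the WT combination 67 of 76 subunit genes were above their median over all tumors, with a mean deviation (from each gene's own mean, as above) of 0.24, but the genes scattered more than in any other tumor (SD 0.19). Rpl10 was at −0.17, Rpl14 at −0.17, Rpl28 at −0.11 and Rps26 at −0.087, while Rps27a was at 0.61, Rpl5 at 0.56 and Rpl19 at 0.55. Rpl7a (−0.011) and Rpl6 (−0.0050) were close to their means. Of these, Rpl28, Rpl19, Rpl7a and Rpl6 were chosen after their values were seen. In replicate 2 of the FcD combination, which also stood above its group with a mean of 0.38, Rpl14 (0.098) and Rpl10 (0.20) were among the 3 lowest, and Rps27 was at 0.68. Rpl10 and Rpl14 were thus among the 3 lowest of the 76 in both tumors. Rpl10 also had 1 of the 3 smallest p among lower genes in both combinations against isotype, and how far these tumors set that order was not tested.

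**Figure D3:**
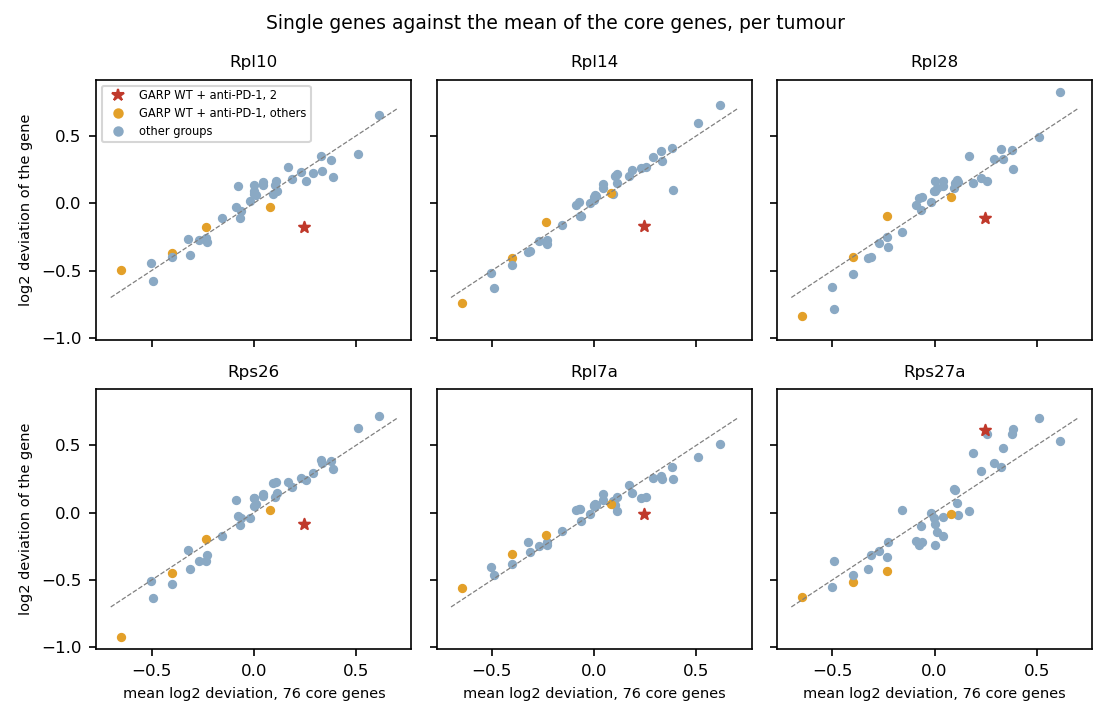
Log2 deviation of Rpl10, Rpl14, Rpl28, Rps26, Rpl7a and Rps27a from their own mean (y axis) against the mean deviation of the 76 subunit genes (x axis) in each of the 40 tumors; orange points are the WT combination, blue points other groups and the dashed line is equality. The red star is replicate 2 of the WT combination, where the mean is 0.24, Rpl10 is at −0.17 and Rps27a at 0.61.

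Single genes are given next by role. Rpsa was at 2956, 2809, 4092, 3128 and 3106 CPM in the isotype tumors, at 3185, 3859, 2370.5, 2641 and 1903 CPM in the WT combination and at 2470.4, 4296, 2504, 2281 and 2240.3 CPM in the FcD combination. In the last group replicate 2 was above all isotype tumors and the other 4 were below all of them. The stalk anchor Rplp0 was at 2252, 2177, 3238, 2474 and 2566 CPM in the isotype tumors and at 1874, 3108, 1918, 1731 and 1791 CPM in the FcD combination, where 4 tumors were below the isotype range and replicate 2 was within it. Its log2 fold changes against isotype were −0.34 ± 0.18 in the WT combination and −0.29 ± 0.18 in the FcD combination, whereas the stalk proteins Rplp1 (0.029 and −0.069) and Rplp2 (−0.083 and −0.18) were closer to 0. Differences between these genes were not tested.

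Rps6, whose phosphorylation by S6 kinase is a common readout of mTOR activity, was at 771, 685, 973, 776 and 738 CPM in the isotype tumors. The FcD tumors were between 806 and 835 CPM and the FcD combination between 537 and 982 CPM. These are mRNA levels and say nothing of phosphorylation. Rps27a, which is translated as a fusion with ubiquitin, ranged from 865 to 2043 CPM in the WT combination, the lowest in replicate 5 and the highest in replicate 2, and from 1130 to 1693 CPM in the isotype group. Rpl13a, the protein that also forms the GAIT complex, was at 38.01, 38.3, 52.8, 45.9 and 41.7 CPM in the isotype tumors and at 53.0, 27.3, 51.2, 46.8 and 51.4 CPM with anti-PD-1, where replicate 2 was apart from the rest.

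Of the genes mutated in Diamond-Blackfan anemia, Rps19 averaged 739 ± 117 CPM in isotype tumors (SD, n = 5), 681 ± 167 CPM in the WT combination and 885 ± 203 CPM in the anti-TGF-β combination. Its 5 tumors in the last group ran from 601 to 1154 CPM, both outside the isotype range of 653 to 943 CPM. Against anti-GARP:TGF-β1 WT, the WT combination gave log2 fold changes of −0.33 ± 0.17 for Rpl35a, −0.28 ± 0.18 for Rps24 and −0.54 for Rps26. Differences among these genes were not tested.

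The X-linked members overlapped between the library sets, unlike Xist. Rps4x averaged 2336 CPM (range 1489 to 2954) in libraries 41 to 60 and 2334 CPM (1323 to 3708) in 61 to 80. Rpl10 averaged 1742 and 1831 CPM, Rpl36a 493.3 and 459 CPM, and Rpl39 363 and 319 CPM.

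The paralogs differed in level and in how far they followed their parent genes. Per kilobase, Rpl22l1, which can replace Rpl22 in the large subunit, was at 0.525 ± 0.095 (SD over 40 tumors) of the level of Rpl22, with a range from 0.265 to 0.696. The ratio was 0.536 in the isotype group and 0.428 ± 0.11 in the WT combination. Rpl22l1 was at 192, 236, 319, 209 and 188 CPM in the isotype tumors and at 219, 319, 148, 162 and 96.9 CPM in the WT combination. The log2 fold change was −0.28 ± 0.30 with an adjusted p of 0.596 (edgeR), well within the spread. In the anti-TGF-β combination Rpl22l1 ranged from 167 to 416 CPM.

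Rpl39l, known from testis and tumor cells, was at 0.486 ± 0.067 of the level of X-linked Rpl39, and at 0.433 in the WT combination, where replicate 5 was the lowest of all tumors at 55.0 CPM. Rps27l was at 0.132 ± 0.020 of Rps27 and Rpl7l1 at 0.0596 ± 0.0084 of Rpl7. Rpl36al and Rps4l were near the limit of detection, at 0.0027 of Rpl36a and 0.0012 of Rps4x. Rpl7l1 moved least: its tumors spanned 1.54-fold over the whole study, from 94.0 to 145 CPM, against 4.29-fold for Rpl22l1 and 2.56-fold for Rpsa.

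**Figure D4:**
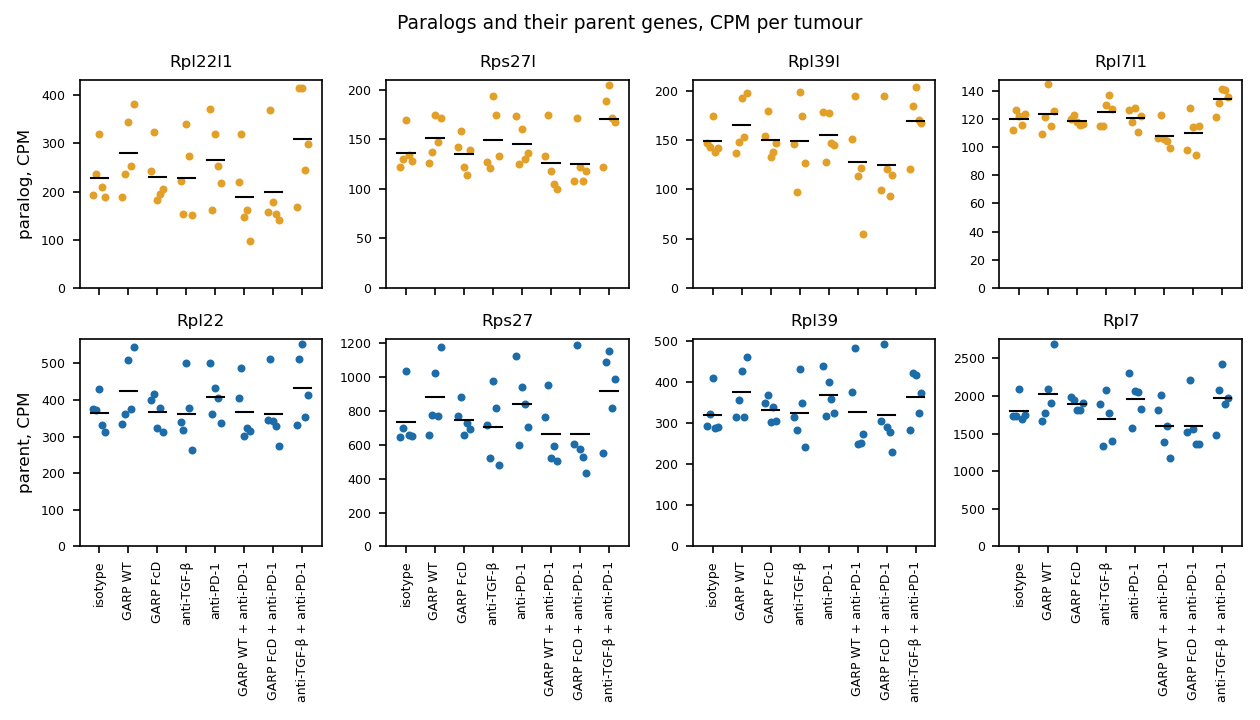
CPM (y axis) of the paralogs Rpl22l1, Rps27l, Rpl39l and Rpl7l1 and of their parent genes in each tumor by treatment group (x axis); lines are group means. Rpl22l1 spreads over 4.29-fold and Rpl7l1 over 1.54-fold.

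The lists of related genes gave these values against isotype. The 4 tested ribosomal protein genes outside the naming rule had medians of −0.14 in the WT combination, −0.18 in the FcD combination and 0.19 in the anti-TGF-β combination, close to those of the 82 genes, with 0 called and 0 past an unadjusted p of 0.05. Mitochondrial ribosomal protein genes had medians of −0.13, −0.13 and 0.22. Of the 76 tested, 8 and 5 were lower in the WT and FcD combinations at an unadjusted p of 0.05, where 7.47% and 5.85% of all genes were. In the anti-TGF-β combination 30 of 76 were higher, against 8.49% of all genes, and 0 were called in any of the 3. TOP mRNA genes had medians of −0.17 and −0.20 in the WT and FcD combinations, with 17 of 18 below 0 in each and 2 and 4 of 18 lower at the unadjusted level (against the same 7.47% and 5.85%), and 0.033 in the anti-TGF-β combination, where 2 were lower, against 11.6% of all genes. Ribosome biogenesis genes had medians of −0.18 and −0.14, with 2 and 0 of 36 lower (against the same shares), and 0.014 in the anti-TGF-β combination, with 2 higher, against 8.49%. Translational control genes had medians of 0.015, 0.0045 and −0.11, with 2, 0 and 3 of 14 lower and 1, 0 and 1 higher in the WT, FcD and anti-TGF-β combinations. The 10 proliferation genes had medians of −0.090, −0.10 and 0.0074, with 0, 1 and 1 lower and 0 higher. In the same 3 combinations 7.47%, 5.85% and 11.6% of all genes were lower and 13.2%, 10.7% and 8.49% were higher.

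Markers of other cells also differed in these comparisons, counted here at an unadjusted p of 0.05. In the WT combination, where 13.2% of all genes were higher at that level, 5 of 7 macrophage markers (median log2 fold change 0.74), 2 of 7 T-cell markers (0.95), all 5 red blood cell markers (1.83), 3 of 4 endothelial markers (0.94), 2 of 6 epithelial markers (2.54) and 1 of 4 neutrophil markers (0.92) were higher. In the FcD combination, where 10.7% of all genes were higher, these were all 6 epithelial markers (3.30), 2 of 3 keratinocyte markers (3.16), all 4 adipocyte markers (3.03), all 5 red blood cell markers (1.91), 3 of 4 neutrophil markers (1.75), 2 of 7 macrophage, 2 of 7 fibroblast, 1 of 7 T-cell and 1 of 4 endothelial markers. In the anti-TGF-β combination, where 8.49% were higher, they were all 4 B-cell markers (3.52), 3 of 4 neutrophil markers (1.94) and 1 marker each of T cells, macrophages and red blood cells. Under anti-TGF-β alone, where 1.77% were higher, they were all 5 red blood cell markers (1.73), 3 of 4 neutrophil markers (1.86), 1 T-cell and 1 adipocyte marker. Under anti-PD-1 alone, where 0.603% were higher, they were all 4 skeletal muscle markers (4.29) and 1 of 3 keratinocyte markers. Under anti-GARP:TGF-β1 WT alone, where 0.583% were higher, they were 2 of 4 B-cell markers (2.75), and under FcD alone there were 0. None was lower against isotype in any group.

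Against the other controls the markers differed as well. In the WT combination against anti-GARP:TGF-β1 WT, where 16.6% of all genes were higher, 4 of 7 macrophage markers (0.68), 2 of 4 endothelial markers (0.84), 1 neutrophil and 1 epithelial marker were higher and 1 keratinocyte marker was lower. In the WT combination against anti-PD-1, where 11.2% were higher, 6 of 7 T-cell markers (1.57), 6 of 7 macrophage markers (0.78), 4 of 5 red blood cell markers (1.59) and 1 marker each of neutrophils, endothelium and epithelium were higher. In the FcD combination against anti-PD-1, where 6.46% were higher, all 5 red blood cell markers (1.61), 3 of 6 epithelial markers (2.79), 2 of 4 neutrophil markers and 1 macrophage marker were higher. All 4 skeletal muscle markers were lower in each of the 3 combinations against anti-PD-1, with medians of −4.08, −3.73 and −4.34, where 5.99%, 4.27% and 10.1% of all genes were lower, and 1 macrophage marker was higher in the anti-TGF-β combination. In the FcD combination against FcD, where 13% were higher, all 4 neutrophil (2.49), all 4 adipocyte (3.43), 5 of 6 epithelial (3.07), 5 of 7 macrophage (0.65), 3 of 7 fibroblast and 1 of 7 T-cell markers were higher and 1 fibroblast marker was lower. In the anti-TGF-β combination against anti-TGF-β the numbers were 0 in both directions. For the interaction terms, at the same unadjusted level, all 4 skeletal muscle markers were below 0 for anti-GARP:TGF-β1 WT (−5.54), 3 of 4 for FcD (−2.96) and all 4 for anti-TGF-β (−5.98), against 4.44%, 2.05% and 1.55% of all genes, and these terms include anti-PD-1 replicate 2, described next. For the WT term 2 of 4 B-cell markers were also below 0 (−3.66) and 1 macrophage marker above 0, for the FcD term 1 neutrophil marker was above 0, and for the anti-TGF-β term 1 fibroblast marker was below 0, where 4.3% and 2.45% of all genes were above 0 for the WT and FcD terms.

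Several of these values came from 1 tumor of a group. Skeletal muscle markers summed to 175.8 CPM in anti-PD-1 replicate 2 and to at most 6.99 CPM in the other 4, against 1.26 to 4.02 CPM in isotype tumors. That tumor had the lowest ribosomal protein share of its group, 7.199%. B-cell markers summed to 84.4 CPM in replicate 5 of the anti-TGF-β combination and to at most 4.86 CPM in the other 4, against 1.61 to 4.48 CPM in isotype tumors, and its ribosomal protein share, 10.1%, was the second highest of its group. Under anti-GARP:TGF-β1 WT they summed to 35.9 CPM in replicate 1 (next 9.52 CPM, lowest 3.03 CPM), whose share of 8.52% was the lowest of its group. That tumor also enters the WT interaction term. In the anti-TGF-β group replicate 2 was the highest for neutrophil markers (269.9 CPM, next 36.3), red blood cell markers (556 CPM, next 157) and adipocyte markers (756 CPM, next 80.4). It too had the lowest share of its group, 6.19%. Replicate 5 of the WT combination, with the lowest share of all 40 tumors, was the highest of its group for macrophage (7620 CPM, next 2827), T-cell (270 CPM, next 78.0), endothelial (431 CPM, next 166) and epithelial markers (244 CPM, next 56.6). Red blood cell markers in that group were highest in replicate 1 (596 CPM, next 224), whose share of 8.88% was the second highest of the group. Epithelial markers in the FcD combination were highest in replicate 4 (517 CPM, next 59.5), whose share of 6.58% was the second lowest there.

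The summed macrophage markers ran from 1554 to 2317 CPM in isotype tumors, 1694 to 7620 CPM in the WT combination and 2102 to 3280 CPM in the FcD combination. T-cell markers summed to 23.4 to 66.5, 27.1 to 270 and 27.2 to 114 CPM. The 6 epithelial markers, listed for carcinoma cells, summed to only 6.87 to 30.2 CPM in isotype tumors, 9.19 to 244 CPM in the WT combination and 7.29 to 517 CPM in the FcD combination. Keratinocyte markers summed to 3.65 to 5.19, 1.97 to 18.0 and 2.52 to 28.7 CPM in the same groups. None of these markers was called at an adjusted p of 0.05, and of the 11 marker lists only the keratinocyte gene Lor was at 0 in every tumor. The neutrophil gene Retnlg was absent from the counts. Ly6g (neutrophils), Tnnt3 and Myh1 (skeletal muscle) and Krt1 and Lor (keratinocytes) did not pass the filter. The numbers of markers above therefore cover only the genes tested. The part of these cells in the ribosomal protein values was not tested.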

How the data were processed

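RNA from tumor fragments was sequenced for the authors by an outside provider, Macrogen, as paired-end stranded mRNA libraries (TruSeq). Per the submitters' processing notes, reads were handled with STAR 2.5.3a, SAMtools 1.6 and HTSeq 0.9.1 on GRCm38. The counting mode, strand setting and annotation release are not given in the sources used here. The deposited values are raw counts per gene.

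Genes were kept with filterByExpr (14760 of 31326 with a count) and tested with edgeR 4.0.16 (R 4.3.3; TMM scaling, robust quasi-likelihood test, 2-sided) in 1 model over all 40 mice, with Benjamini-Hochberg adjustment over all kept genes and a threshold of 0.05. DESeq2 1.42.0 was an alternative. CPM used TMM-scaled library sizes, and log2 CPM a prior count of 2. Scripts were tested on simulated data. Low counts limit only Rpl24, which overlaps another gene as described above, and the low paralogs. Libraries are labelled by treatment and number only, so p-values measure the spread between these samples.

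The members and lists were chosen with earlier results of these data known. Genes are named by role, as paralog or parent, or, against isotype, as the 3 smallest p in each direction, with extremes of level or spread added. Rpl28, Rpl7a, Rpl18, Rpl15, Rps13, Rps9, Rpl6 and Rpl19 were also named for combination comparisons or single tumors after their values were seen. Promoter windows come from RefSeq. The values of some genes are not reported here.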

Additional observations from a re-analysis of the deposited data

Results flagged for a closer look

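Of 120 groups of 5 tumors examined, 21 (17.5%) held a tumor whose gap to its nearest neighbor exceeded Dixon's 95% critical value, where chance flags about 1 in 20. The genes are not independent, since most flags came from 2 tumors.

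Replicate 3 of the isotype group was high for the share of counts (10.6%, next 8.38%), and for Rpsa (4092 CPM), Rpl5 (1284 CPM), Rps19 (943 CPM), Rps27 (1036 CPM), Rps27l (169.9 CPM) and Rpl39l (174 CPM). Replicate 2 of the FcD combination was high for the share of counts (11.1%, next 7.195%), and for Rpsa (4296 CPM), Rplp0 (3108 CPM), Rps6 (982 CPM), Rpl5 (1471 CPM), Rps27a (2055 CPM), Rpl13a (57.5 CPM), Rpl22l1 (370.2 CPM), Rps27 (1189 CPM), Rps27l (171 CPM), Rpl39l (195 CPM) and Rpl10 (2011 CPM).

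The remaining flags were single genes. Rpl13a was low in replicate 2 of the anti-PD-1 group (27.3 CPM, next 46.8), and Rpl7l1 was high in replicate 2 of the WT combination (123 CPM, next 106).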

How the results depend on the processing

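The number of called ribosomal protein genes and their median log2 fold change were recomputed with DESeq2, with other scalings, without the low-count filter, with the library set as a covariate, with only the compared groups, and without each mouse in turn. In all 16 comparisons the median kept its sign under each of these apart from the leave-one-out cases named in the report. In the GARP WT combination against anti-GARP:TGF-β1 WT, DESeq2 called 1 gene, and leaving out 1 mouse at a time gave 0 to 9 calls. The 9 were a share of the ribosomal protein genes no higher than that of all genes in the same fit. Besides the cases in the report, leaving out 1 mouse moved other medians by over 1.5 times, and the furthest values follow. They were found for FcD against isotype (0.019 without isotype replicate 2, 0.14 without isotype replicate 3), anti-TGF-β against isotype (−0.17 without anti-TGF-β replicate 3), the WT combination against anti-PD-1 (−0.17 without combination replicate 5), the FcD combination against anti-PD-1 and FcD (−0.48 and −0.42 without combination replicate 2) and the FcD interaction (−0.53 without it). They were also found for the anti-TGF-β combination against anti-PD-1 (0.19 without combination replicate 1) and against anti-TGF-β (0.15 without combination replicate 3), and the anti-TGF-β interaction (0.041 without combination replicate 3, 0.24 without anti-TGF-β replicate 3). Within library sets, an alternative chosen after seeing the data, medians moved for the WT combination against isotype (0.28 in libraries 41 to 60, −0.49 in 61 to 80), the FcD combination against isotype (−0.53 in 61 to 80), the WT combination against anti-PD-1 (0.041 in 41 to 60) and against anti-GARP:TGF-β1 WT (0.068 and −0.76), the WT interaction (−0.17 and −0.79) and the anti-TGF-β interaction (−0.19 in 41 to 60). By smaller amounts, signs were opposite between the sets for FcD (0.22 and −0.041) and anti-TGF-β (0.043 and −0.17) against isotype and for the anti-TGF-β combination against anti-PD-1 (−0.15 and 0.23), and the FcD combination against isotype was at 0.068 in 41 to 60. The cause was not tested. Numbers past an unadjusted p of 0.05 changed with only the compared groups in the model, from 37 to 18 for the WT combination against anti-GARP:TGF-β1 WT, from 10 to 5 and from 8 to 5 for the WT and FcD combinations against anti-PD-1, and from 3 to 11 for the FcD combination against FcD. Without a filter the 8 became 17, and with library totals alone the 10 became 18. No paired analysis was possible because the labels give no replicate numbers shared between groups. With 5 mice a group and a median SE near 0.18, shifts of the sizes seen here are not resolved gene by gene, and low counts limit only the lowest genes.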
